A study of Mus musculus with 4 samples.

Results

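Ccl3, Ccl4, Ccl5 and Ccr1 are 3 CC chemokines and a receptor of Ccl3 and Ccl5, and they are 4 of the 32285 genes that the files list. They were chosen by gene symbol, with earlier results of these data known, so their levels and ratios are given as a description. The cells were CD45+ cells of the brains of wild-type mice, sorted after perfusion, mechanical dissociation and enrichment on Percoll. Young mice were 3 to 6 months old and aged mice 18 to 20 months old. They underwent cardiac arrest (CA), brought on with potassium chloride and followed by resuscitation, or sham surgery without arrest, and brains were taken on day 3. Each of the 4 groups was 1 library of droplet-based 3′ counts, pooled from 3 mice. No value therefore has a replicate spread, no test was possible, and every interval below is a 95% interval that covers counting error only. Values given 4 at a time follow one library order: young sham first, then young CA, then aged sham, and aged CA last.

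Chemokines are small secreted proteins that guide leukocytes along gradients, and many of them bind to glycosaminoglycans on cells and matrix. Ccl3 and Ccl4, also known as macrophage inflammatory proteins 1 alpha and 1 beta, are made by activated macrophages and microglia, and Ccl5, also known as RANTES, is best known as a product of effector T cells and natural killer (NK) cells. Ccr1 is a G protein-coupled receptor on myeloid cells that binds Ccl3 and Ccl5. Other receptors of these ligands are not analysed as members here, and a list of other CC and atypical chemokine receptors is summarised in microglia below.

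On GRCm38, the assembly that mm10 names, the 3 ligand genes lie together on chromosome 11 and the receptor lies apart on chromosome 9. Ccl5 (ENSMUSG00000035042) spans chr11:83525778-83530518 on the minus strand and Ccl3 (ENSMUSG00000000982) spans chr11:83647844-83649355 on the minus strand. Ccl4 (ENSMUSG00000018930) spans chr11:83662584-83664683 on the plus strand, so that Ccl3 and Ccl4 point away from each other with 13228 bases between them. Ccr1 (ENSMUSG00000025804) spans chr9:123962124-123968692 on the minus strand. All are protein coding in GENCODE.

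The 250 bases before the annotated start are shown for Ccl3 and Ccr1, a ligand and the receptor which were both higher after CA in microglia below, as RefSeq gives them on GRCm38.p6. A promoter sequence was matched for 2 of the 4 genes. Each reads 5′ to 3′ along the gene, and capitals mark matches to any of 5 motifs searched on both strands.
Ccl3, chr11:83649379-83649628, minus strand: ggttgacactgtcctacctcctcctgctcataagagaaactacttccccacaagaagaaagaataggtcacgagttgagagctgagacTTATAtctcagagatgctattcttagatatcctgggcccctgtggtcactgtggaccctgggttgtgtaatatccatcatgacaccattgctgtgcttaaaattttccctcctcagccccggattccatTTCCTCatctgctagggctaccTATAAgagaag
Ccr1, chr9:123968693-123968942, minus strand: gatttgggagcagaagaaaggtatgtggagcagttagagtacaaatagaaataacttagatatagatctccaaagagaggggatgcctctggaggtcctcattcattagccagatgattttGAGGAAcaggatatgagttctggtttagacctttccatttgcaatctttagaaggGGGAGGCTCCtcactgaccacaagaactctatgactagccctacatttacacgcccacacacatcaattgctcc
In the Ccl3 window TATAA lay at position -11 on the gene strand and at -162 on the other strand, and GAGGAA, the core of the PU.1 motif, lay at -33 on the other strand, counting back from the base before the start. That start is the RefSeq one. For Ccl3 it lies upstream of the GENCODE start at 83649355 given above, so the Ccl3 matches lie further from the GENCODE start than these positions. In the Ccr1 window GAGGAA lay at -129 and the NF-kB consensus at -74, both on the gene strand. The interferon response element (GAAA, any 2 bases, GAAA) and TGANTCA (AP-1) matched neither window, and no marked matches overlapped. Of 32851 windows of that length, TATAA was in 22.8%, GAGGAA in 23.3%, the NF-kB consensus in 7.25%, the interferon response element in 2.98% and TGANTCA in 6.75%. A match is a description of the letters and not of a bound site.

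Of 8730, 10131, 7538 and 5888 kept barcodes in the library order, the marker gate called 8152, 8976, 5960 and 4674 microglia, and it left 258, 603, 1012 and 663 unassigned. Microglia had a median of 12, 11, 11 and 10 of the 12 microglial markers. Their median depth was 6128, 9844, 3248.5 and 10829.5 UMIs (unique molecular identifiers, each a counted transcript), and their median mitochondrial share was 1.68%, 2.57%, 1.90% and 3.73%, so that depth and mitochondrial share both went with CA, and their part in the results was not tested. Aged sham stood apart in depth and held 27 erythroid barcodes, against 0 in both young libraries and 3 in aged CA. The CD45 sort also carried 124, 111, 202 and 165 barcodes gated as neurons, which should lack these chemokines and are used as a background. Barcodes shared by a pair of libraries numbered 15 to 32.

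The ligands Ccl3 and Ccl4 were far higher in microglia of aged mice after CA than in the other 3 libraries. Levels are UMIs per 1000000 UMIs of the summed class (CPM), and they are not compared between genes. Ccl3 stood at 25.7, 109, 71.9 and 935 CPM in the library order, from 1636, 10760, 2385 and 49746 UMIs. Ccl4 stood at 49.3, 188, 151 and 1179 CPM, from 3136, 18533, 5014 and 62728 UMIs. For both genes young sham was lowest, followed by aged sham, young CA and aged CA, and no neighbours in that order had overlapping intervals. The ratio of CA to sham was 4.24 (4.02 to 4.47) for Ccl3 and 3.81 (3.67 to 3.96) for Ccl4 in young mice, and 13 (12.5 to 13.6) and 7.80 (7.58 to 8.03) in aged mice. Aged over young was 2.80 for Ccl3 and 3.07 for Ccl4 among shams, and 8.58 and 6.29 after CA. The comparisons share libraries, since each library enters an arrest comparison and an age comparison.

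The ligand Ccl5 and the receptor Ccr1 were also higher after CA, in another order over the libraries. Ccl5 stood at 2.26, 37.9, 34.4 and 95.1 CPM in microglia, from 144, 3747, 1142 and 5057 UMIs. Its CA to sham ratio was 16.8 (14.2 to 19.9) in young and 2.76 (2.59 to 2.95) in aged mice, and aged over young was 15.2 among shams and 2.51 after CA. The young ratio was 5.18 with unassigned barcodes nearest to microglia added and 10.7 with each cell weighted equally, the aged CA to sham ratio ran from 1.08 to 10.3, and the sham age ratio ran from 4.96 to 27.1 over the other ways of processing. Ccr1 stood at 4.18, 25.1, 6.69 and 17.0 CPM, from 266, 2482, 222 and 905 UMIs, with CA to sham ratios of 6.01 (5.30 to 6.85) and 2.54 (2.19 to 2.96). It was the only member lower in aged than in young CA microglia, at a ratio of 0.677 (0.627 to 0.731), while among shams it was 1.60 (1.33 to 1.92) times higher in aged mice. Whether any of these CA responses differs between the ages could not be tested with 1 library per group.

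**Figure D1:**
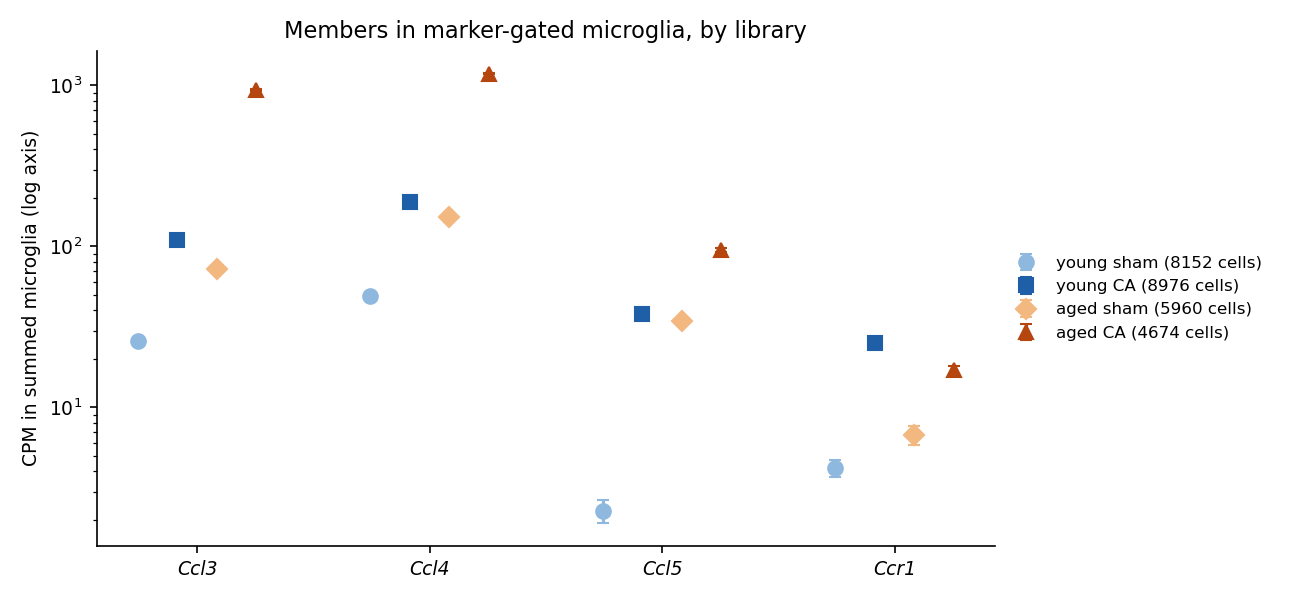
CPM of Ccl3, Ccl4, Ccl5 and Ccr1 in summed microglia on a log axis, 1 point per library, with exact Poisson 95% intervals (counting error only), which are mostly smaller than the points. Aged CA is highest for the 3 ligands (935, 1179 and 95.1 CPM), and young CA is highest for Ccr1 (25.1 CPM).

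All 4 members were 2-fold or more higher after CA in microglia of both ages, and 0 were 2-fold or more lower, where 5.72% of 9122 genes with a mean of at least 10 CPM were so in young and 5.99% of 9277 in aged mice, and 2.59% and 8.33% were lower. Because the members were chosen from these comparisons, nothing is read from that count. Ccl5 in young mice and Ccr1 in both ages passed the level filter only through their CA library and so were bound to lie near or above 2-fold. Over 10 other ways of processing Ccl5 stayed at 2-fold or more in aged mice in 8 and Ccr1 in 9. In young mice they ranked 137 (Ccl3), 152 (Ccl4), 45 (Ccl5) and 105 (Ccr1) among the genes by fold, and in aged mice 30, 49, 238 and 288. Among shams 3 members were 2-fold or more higher in aged mice and 0 lower, against 2.64% and 0.141% of 9227 genes, with Ccr1 below the filter and Ccl5 through it only by aged sham. After CA, 3 of 4 were so and 0 were lower, against 1.72% and 2.58% of 9059 genes, and Ccl3 ranked 8 and Ccl4 ranked 13. TMM scaling moved the young CA against sham comparison of all genes by 0.18 (log2) and changed its split from 522 higher and 236 lower genes to 742 higher and 148 lower, and every member kept its direction.

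Both Ccl3 and Ccl4 were concentrated in few cells in every library. The 20 richest of 8152 microglia held 50% of the Ccl3 UMIs in young sham, 107 of 8976 did in young CA, 33 of 5960 in aged sham and 72 of 4674 in aged CA. For Ccl4 these numbers were 8, 77, 29 and 63. The richest cell held 217, 269, 189 and 1164 Ccl3 UMIs and 451, 479, 364 and 1728 Ccl4 UMIs in the same order. Small sets of very rich microglia were thus present in both shams as well.

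The share of microglia with a UMI followed a like order after each cell was thinned to 1000 UMIs, which left out 510, 126, 693 and 40 shallower cells. Ccl3 was seen in 1.58%, 5.67%, 4.61% and 21.9% of thinned microglia, and unthinned in 6.73%, 23.2%, 12% and 63.9%. Ccl4 was seen in 2.05%, 6.84%, 6.80% and 22.6% of thinned microglia, with young CA and aged sham inside each other's intervals (6.32% to 7.38% and 6.13% to 7.51%), and unthinned in 8.92%, 23.7%, 15.3% and 60.7%. Thinned neurons, whose UMIs can come from free RNA, showed Ccl3 in 0%, 1.01%, 0.508% and 1.92% and Ccl4 in 0%, 3.03%, 1.52% and 4.49%; for 0 of 120 young sham neurons the upper Clopper-Pearson bound is 3.03%. Microglia with at least 5 Ccl3 UMIs after thinning made up 0.0523%, 0.181%, 0.190% and 3.97%, and for Ccl4 0.144%, 0.588%, 0.342% and 4.79%.

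**Figure D2:**
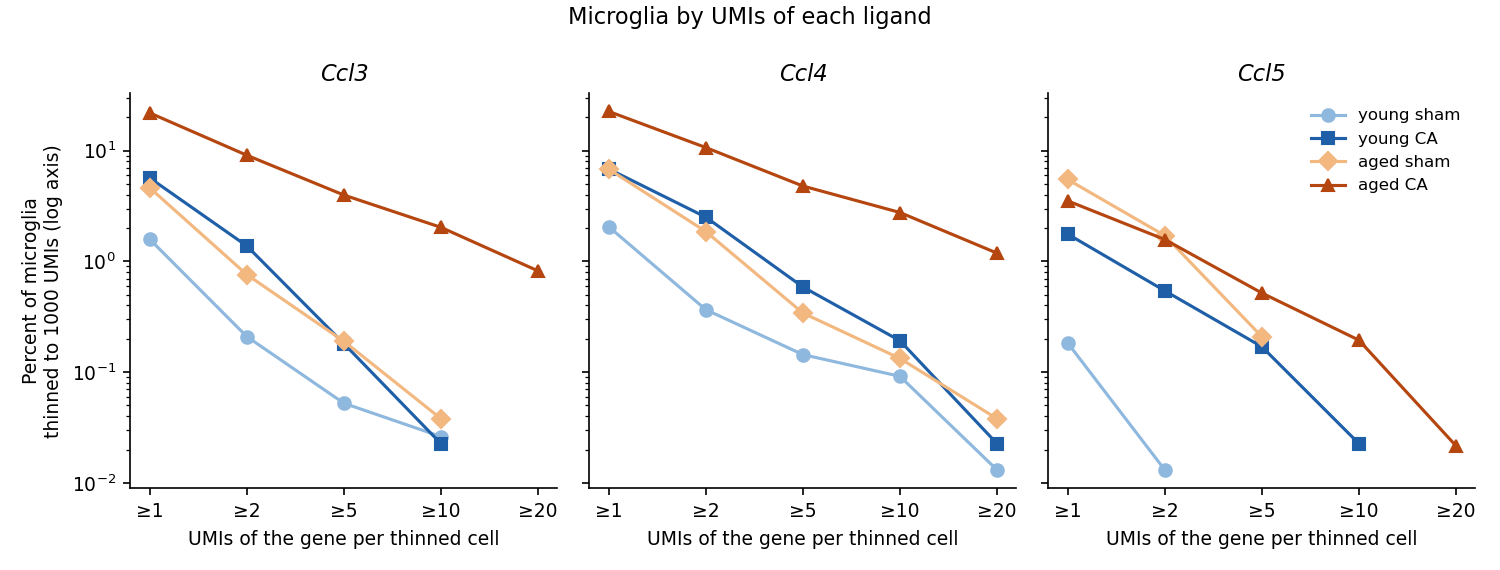
Percent of microglia, thinned to 1000 UMIs each, that hold at least 1, 2, 5, 10 or 20 UMIs of Ccl3, Ccl4 or Ccl5, on a log axis, with 1 line per library and shares of 0 left out. The aged CA line lies above the others throughout for Ccl3 and Ccl4, whereas for Ccl5 the aged sham line starts highest (5.49% with at least 1 UMI) and lies below aged CA at 5 UMIs or more (0.209% against 0.518%).

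Ccl4 was seen more often in microglia with a Ccl3 UMI than in those without, though most cells with Ccl3 showed no Ccl4 after thinning. In thinned microglia with a Ccl3 UMI, 19.8%, 33.9%, 28.4% and 49.6% also held Ccl4 in the library order, against 1.77%, 5.21%, 5.75% and 15% of microglia without Ccl3. The neighbouring gene Ccl5 did not follow this closely, since it was seen in 3.78%, 7.0% and 4.93% of Ccl3-positive microglia in young CA, aged sham and aged CA, against 1.64%, 5.41% and 3.12% of the others. Of the genes seen in at least 2% of thinned microglia in every library, those with the largest excess in Ccl3-positive cells in all 4 libraries were Ccl4, Ell2 (a transcription elongation factor), Myo1e (an unconventional myosin), Nfkbiz (an atypical inhibitor of NF-kB) and the CC chemokine Ccl9. Nfkbiz was in 9.09%, 6.97%, 10.3% and 13.5% of Ccl3-positive microglia and in 2.18%, 4.28%, 4.6% and 8.10% of the rest. For Ccl4 the genes that passed the 2% limit were Myo1e, Nfkbiz, Opa3, the stress-induced factor Atf3 and Slc25a25. Ccl3 did not pass it, since it was seen in 1.58% of thinned young sham microglia, though its excess was larger. It was in 15.3%, 28.1%, 19.3% and 48.0% of Ccl4-positive microglia, against 1.30%, 4.03%, 3.54% and 14.3% of the rest. For Ccl5, over the 3 libraries with enough positive cells, the first was Psmb10, a subunit of the immunoproteasome, in 12.8%, 13.1% and 12.9% of Ccl5-positive microglia of young CA, aged sham and aged CA, against 6.43%, 6.23% and 6.04% of the rest. These shares were not tested, and cells of 1 library are not replicates.

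Microglia with low levels of microglial markers held more Ccl3 and Ccl4 per UMI in every library but young sham. The gate scores each cell by its marker level relative to other microglia, and 7, 210, 34 and 749 microglia fell under a relative level of 0.3, which is 16.0% of microglia in aged CA and at most 2.34% elsewhere. In aged CA these 749 cells held Ccl3 at 3141 CPM and Ccl4 at 3813 CPM, against 594 and 772 CPM in the other 3925 microglia. In young CA the 210 cells held Ccl3 at 291 and Ccl4 at 765 CPM, against 106 and 180 CPM. The 34 such cells in aged sham held Ccl3 at 404 and Ccl4 at 772 CPM, against 70.6 and 149 CPM, and the 7 in young sham held 0 UMIs of any member. Ccl5 was at 314 against 34.1 CPM in young CA and 233 against 73.6 CPM in aged CA, and at 36.8 against 34.4 CPM in aged sham, from 5 UMIs in the low-marker cells. Ccr1 was at 27.4 against 15.4 CPM in aged CA and 61.7 against 24.6 CPM in young CA. Without these cells the aged CA to sham ratio was 8.42 for Ccl3 and 5.19 for Ccl4, both lower by over 1.5 times, and 2.14 for Ccl5, while in young mice Ccl3 and Ccl4 were at 4.14 and 3.64. The aged to young ratio of Ccl3 after CA was then 5.58. These cells were shallower, with medians of 8037 UMIs in aged CA and 3461.5 in young CA, and the part of depth was not tested.

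The Ccl5 level of aged sham microglia went together with T cell markers. There, 41.8% of the 552 microglia with a Ccl5 UMI also held a UMI of a T cell or NK cell marker, against 8.14% of the 5408 without Ccl5. In the other 3 libraries these shares were 2.33% and 3.76% (young sham), 3.00% and 2.32% (young CA) and 2.35% and 2.09% (aged CA). In microglia with no such marker Ccl5 stood at 2.23, 37.7, 14.8 and 94.3 CPM, against 2.26, 37.9, 34.4 and 95.1 CPM with all microglia, so that aged sham changed most. The CA to sham ratio in aged mice was then 6.38 in place of 2.76, and the aged to young ratio among shams was 6.62 in place of 15.2. With classes taken from clusters of the 4 libraries they were 10.3 and 4.96. With each cell weighted equally the aged CA to sham ratio was 1.08, from 87.6 and 94.4 CPM, and with unassigned barcodes nearest to microglia added it was 1.86.

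Of the microglia with Ccl5 in aged sham the median depth was 2189 UMIs, against 3417.5 in those without it, whereas in aged CA it was 12741 against 10632. The share of microglia with a Ccl5 UMI depended on the thinning in aged mice. It was 5.49% in aged sham and 3.52% in aged CA at 1000 UMIs, 4.68% (4.04% to 5.39%) and 4.56% (3.97% to 5.21%) at 2000 UMIs, and 9.26% and 10.9% unthinned, so no order is read from it. In young sham and young CA it was 0.183% and 1.76% at 1000 UMIs and 1.05% and 6.32% unthinned. Cells with 2 or more Ccl5 UMIs held 69.9% of the Ccl5 UMIs of aged sham microglia and 94.7% of those of aged CA. The top 24 aged CA microglia and the top 102 aged sham microglia held 50% of the UMIs of their library. Neurons in aged sham held Ccl5 at 11% of the microglial level, from 16 UMIs in 12 of 202 barcodes. The like value was 2.42% for Cx3cr1, 2.62% for P2ry12, 2.77% for Tmem119, 2.85% for Ctss and 2.96% for Csf1r, all expressed by microglia. The 27 erythroid barcodes there held Ccl5 at 462 CPM, from 26 UMIs in 4 barcodes, with 9 in the richest. T cell markers in the erythroid class summed to 923 CPM. What part RNA of T cells, free in the suspension or in a shared droplet, had in the Ccl5 level of aged sham microglia was not tested.

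**Figure D3:**
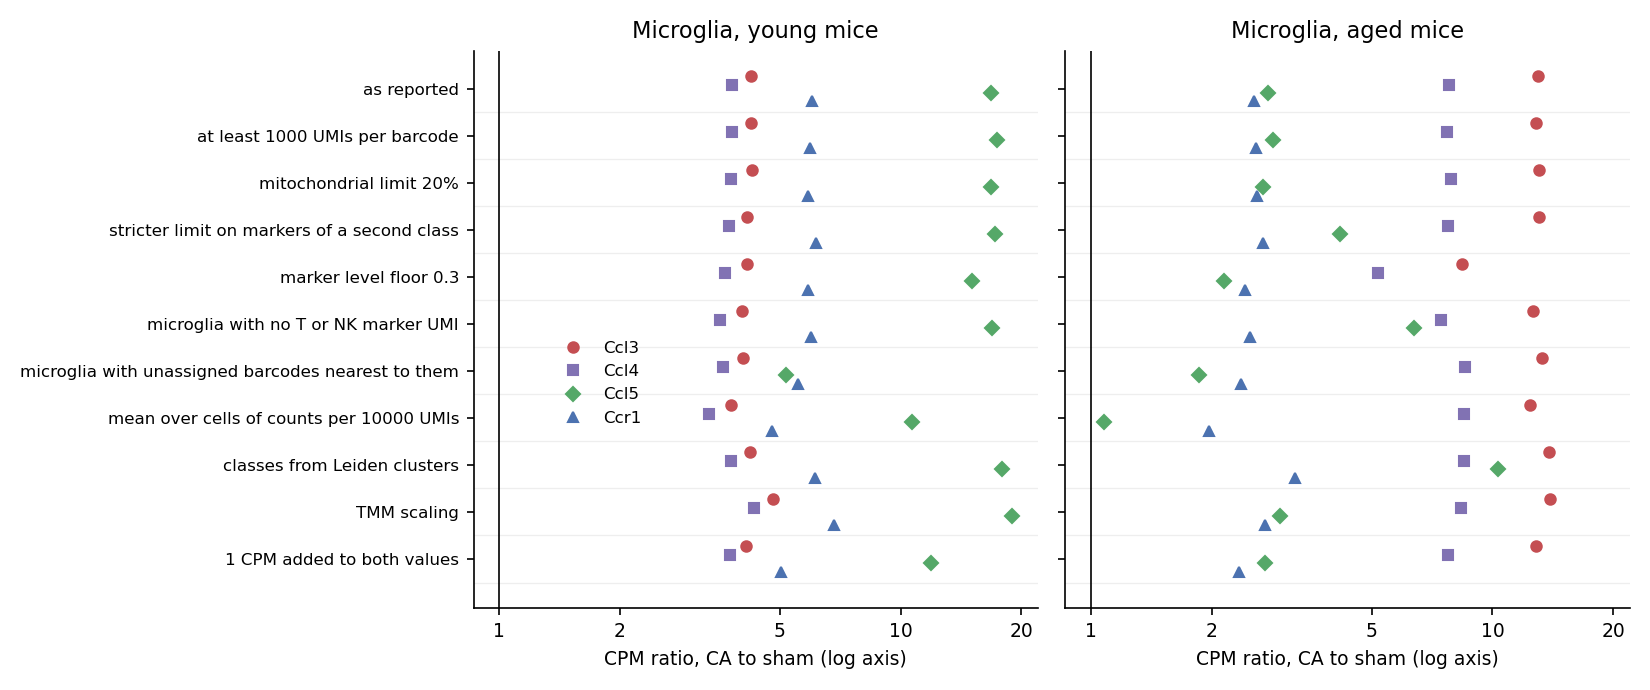
Ratio of CPM, CA to sham, in microglia of young (left) and aged (right) mice on a log axis, with 1 point per member and row, and 1 row for the values as reported and for each other way of processing. In aged mice Ccl3 runs from 8.42 to 13.9, Ccl4 from 5.19 to 8.55 and Ccr1 from 1.97 to 3.23, while Ccl5 runs from 1.08 to 10.3.

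Over the whole libraries the members lay in different cells. Microglia held 91.7%, 95.5%, 87.9% and 86.2% of the Ccl3 UMIs and 91.9%, 92.7%, 90.4% and 82.6% of the Ccl4 UMIs. They held 8.34%, 32.2%, 12.5% and 38.3% of the Ccl5 UMIs, while T cells held 32.5%, 4.48%, 67.2% and 23.3%. Microglia held 41.6%, 55.4%, 39.4% and 35.4% of the Ccr1 UMIs and were 93.4%, 88.6%, 79.1% and 79.4% of the barcodes kept. Barcodes left unassigned, some with markers of more than 1 class, held 42.6%, 20.3%, 18.3% and 21.0% of the Ccl5 UMIs. These shares hold both the number of cells of a class and the level in each.

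**Figure D4:**
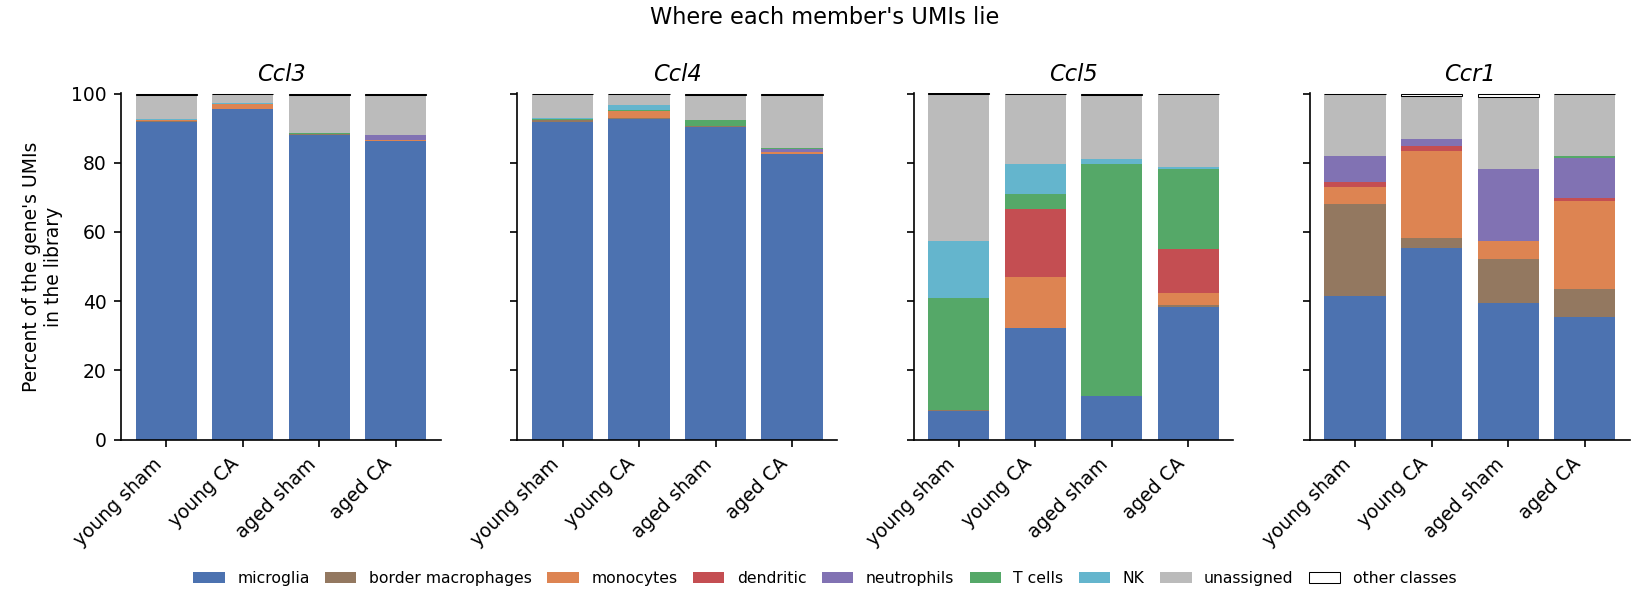
Percent of each member's UMIs in a library that lie in each marker-gated class, as stacked bars from 0 to 100 for the 4 libraries. Microglia hold 82.6% or more of Ccl3 and Ccl4 in each library, T cells hold 67.2% of Ccl5 in aged sham, and Ccr1 is spread over microglia, macrophages, monocytes and neutrophils.

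The CPM of Ccl5 in T cells was higher after CA in young mice, where few cells carried it, and lower after CA in aged mice. It stood at 987, 2314, 4063 and 3067 CPM, from 42, 24, 171 and 111 T cells. The ratio of CA to sham was 2.34 (2.08 to 2.65) in young and 0.755 (0.723 to 0.788) in aged mice, and aged over young among shams was 4.12. In young CA 1 T cell held 175 of the 521 Ccl5 UMIs and another held 76, and the share of T cells with a Ccl5 UMI was 59.5% (43.3% to 74.4%) in young sham and 45.8% (25.6% to 67.2%) in young CA, which does not follow the CPM. In aged mice that share was 79.5% in sham and 68.5% in CA. CD8 T cells, those with a Cd8 UMI, made up 23.8%, 33.3%, 62.0% and 56.8% of T cells. In CD8 T cells Ccl5 stood at 1028, 4382, 5295 and 4133 CPM, from 10, 8, 106 and 63 cells. In T cells without Cd8 it stood at 972, 904, 1140 and 996 CPM, from 32, 16, 65 and 48 cells. The libraries lay closer together there, but in young CA 1 of these cells held 76 of the 121 UMIs, so little is read from that.

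Within aged CD8 T cells, which had enough cells for a ratio, Ccl5 was 0.781 (0.746 to 0.817) of sham after CA and was seen in 96.2% of cells in sham and 93.7% in CA. Ccl4 was 1.98 (1.49 to 2.64) times higher, at 85.6 and 169 CPM, but 1 cell held 62.5% of the 112 UMIs in aged CA. Ccl3 stood at 5.64 and 62.0 CPM, from 6 and 41 UMIs. Neurons of the same libraries held Ccl3 at 1.89 and 33.8 CPM, of which 109 of the 172 aged CA UMIs lay in 1 neuron barcode, and the part of free RNA in the T cell level was not tested. Ccr1 had 0 UMIs in aged sham T cells and 13 in aged CA.

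The NK cell class was small, with 5, 8, 4 and 2 cells, and every NK cell held Ccl5, at 2985, 15092, 6657 and 3107 CPM. In young CA the 8 NK cells also held 330 Ccl4 UMIs, of which 317 lay in 1 cell. With so few cells no ratio is given.

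Dendritic cells held Ccl5 in both CA libraries, and there it lay in the cells with Ccr7, the receptor that marks dendritic cells moving to lymph nodes. The class had 7, 47, 1 and 11 cells, with Ccl5 at 0, 2398, 0 and 8466 CPM from 0, 2262, 0 and 1658 UMIs. In young CA the 16 cells with a Ccr7 UMI held 2244 of the 2262 Ccl5 UMIs, or 99.2%, and in aged CA the 5 such cells held 1646 of 1658, or 99.3%. The level was 8544 against 26.4 CPM in young CA and 17798 against 116 CPM in aged CA. Ccr7 is 1 of the markers of the class, and splitting on it was chosen after the values of the class had been seen. No dendritic cell of either sham held Ccr7, from 7 and 1 cells.

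Monocytes and monocyte-derived macrophages held all 4 members after CA. There were 12, 256, 18 and 61 of these cells, too few in the shams for a ratio. Ccl5 stood at 341 CPM in young CA and 259 CPM in aged CA, where 5 cells and 1 cell held 50% of its UMIs. Ccl3 stood at 30.5 and 102 CPM and Ccl4 at 86.0 and 197 CPM in young and aged CA. Neutrophil markers summed to 184, 221, 173 and 15399 CPM in the monocyte class, with a median of 4 of them seen per cell in aged CA and 1 in the other libraries, against 294263 CPM in aged CA neutrophils. Their part in the aged CA monocyte levels of the members was not tested. Border-associated macrophages, the long-lived macrophages of meninges and perivascular spaces, held Ccl3 at 10.3, 22.3, 27.6 and 148 CPM, with a CA to sham ratio of 2.16 (0.766 to 6.58) in young and 5.35 (2.58 to 12.8) in aged mice. Their Ccl4 ratio in aged mice, 1.49 (0.768 to 3.08), became 9.74 when cells of up to 20% mitochondrial UMIs were kept and 9.87 with a marker level floor of 0.3, so no direction is read from it. Ccl5 in them was at 2.95, 32.5, 0 and 177 CPM, from 2, 16, 0 and 90 UMIs. T cell markers in them summed to 25.1, 6.09, 10.4 and 80.9 CPM, also highest in aged CA, against 3327 CPM in aged CA T cells, and their part in the Ccl5 level was not tested.

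Neutrophils held many UMIs of Ccl3 and Ccl4 in aged CA and few elsewhere, where the class was smaller. In 58 aged CA neutrophils Ccl3 had 729 UMIs, or 856 CPM (795 to 920.5), and Ccl4 had 577 UMIs, or 678 CPM. In 25 aged sham neutrophils Ccl3 had 1 UMI and Ccl4 had 0, which allows up to 12.4 CPM at 3 counts. The 10 young sham neutrophils held 0 and 5 UMIs, and the 19 of young CA held 0 of both. The 5 Ccl4 UMIs of young sham lay in 2 cells, so no low level of Ccl4 is read there. In aged CA 3 cells held 50% of the UMIs of each gene. The ratio of Ccl3 in aged mice was 207 (37.1 to 8206), its width set by the 1 sham UMI, where 13.3% of 6557 genes were 2-fold or more higher in neutrophils.

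The order of the classes of 20 or more cells in aged CA placed Ccl3 highest in microglia, followed by neutrophils, whose intervals did not overlap, then border-associated macrophages (148 CPM, 116 to 185) and monocytes (102 CPM, 87.5 to 118), whose intervals did. For Ccl4 microglia, neutrophils and monocytes followed each other with no overlap, while the 134 CPM of T cells (112 to 158) lay below monocytes (176 to 218). For Ccl5 the order was T cells, monocytes, border-associated macrophages and microglia, with no overlap between neighbours. However, 1 of the 61 monocytes held 239 of the 452 Ccl5 UMIs. The place of monocytes above border-associated macrophages is therefore not read as firm. The richest neutrophil held 171 of 729 Ccl3 UMIs and 148 of 577 Ccl4 UMIs, and 1 T cell held 70 of 134 Ccl4 UMIs. The intervals do not cover the weight of such cells, so the orders of Ccl3 and Ccl4 are also given as a description. B lineage cells (34.1 CPM) and oligodendrocytes (48.7 CPM) held Ccl3 in aged CA with intervals that include the level of neurons, 33.8 CPM. Unassigned barcodes held Ccl3 at 1381 CPM and Ccl4 at 2422 CPM in aged CA, above every gated class of that size.

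The receptor Ccr1 was highest, among the gated classes, in neutrophils, border-associated macrophages and monocytes in every library. Neutrophils held it at 433, 468, 483 and 344 CPM, with 80.0%, 89.5%, 68.0% and 96.6% of cells showing a UMI. Border-associated macrophages held it at 249, 262, 249 and 404 CPM. Monocytes held it at 113, 224, 97.9 and 371 CPM, and microglia came far below, at 4.18 to 25.1 CPM. The neutrophil markers in aged CA monocytes, at the level given above, move with that monocyte value too. In both shams the values fell from neutrophils to border-associated macrophages to monocytes, with no overlap of intervals, but from few cells. Young sham held 10 neutrophils and 12 monocytes, and aged sham 25 and 18. The sham monocytes held 32 and 30 Ccr1 UMIs, of which 1 cell held 9 in each, so that order is not read as firm. Young CA held 19 neutrophils. In young CA neutrophils came first, and the intervals of border-associated macrophages (218 to 311) and monocytes (211 to 237) overlapped. In aged CA the intervals of border-associated macrophages (351 to 464), monocytes (343 to 400) and neutrophils (306 to 386) overlapped, so that these classes cannot be ordered there. In aged mice the CA to sham ratio was 0.713 (0.573 to 0.891) in neutrophils and 1.62 (1.24 to 2.16) in border-associated macrophages, and in young border-associated macrophages it was 1.05 (0.829 to 1.33).

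Neurons, the background class, also held Ccr1 in young CA. They had 29 Ccr1 UMIs, or 11.3 CPM, which is 45% of the microglial level, but 15 of them lay in 1 cell and 5 of 111 cells held any. Neurons of the other 3 libraries held 0, 0 and 2 UMIs. In thinned microglia Ccr1 was seen in 0.497%, 1.90%, 0.646% and 1.53%, and in 0 of 99 thinned young CA neurons, with an upper Clopper-Pearson bound of 3.66%. All of the microglial shares lie below that bound, so they are not read as a difference from neurons, and the class sums carry the comparison.

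**Figure D5:**
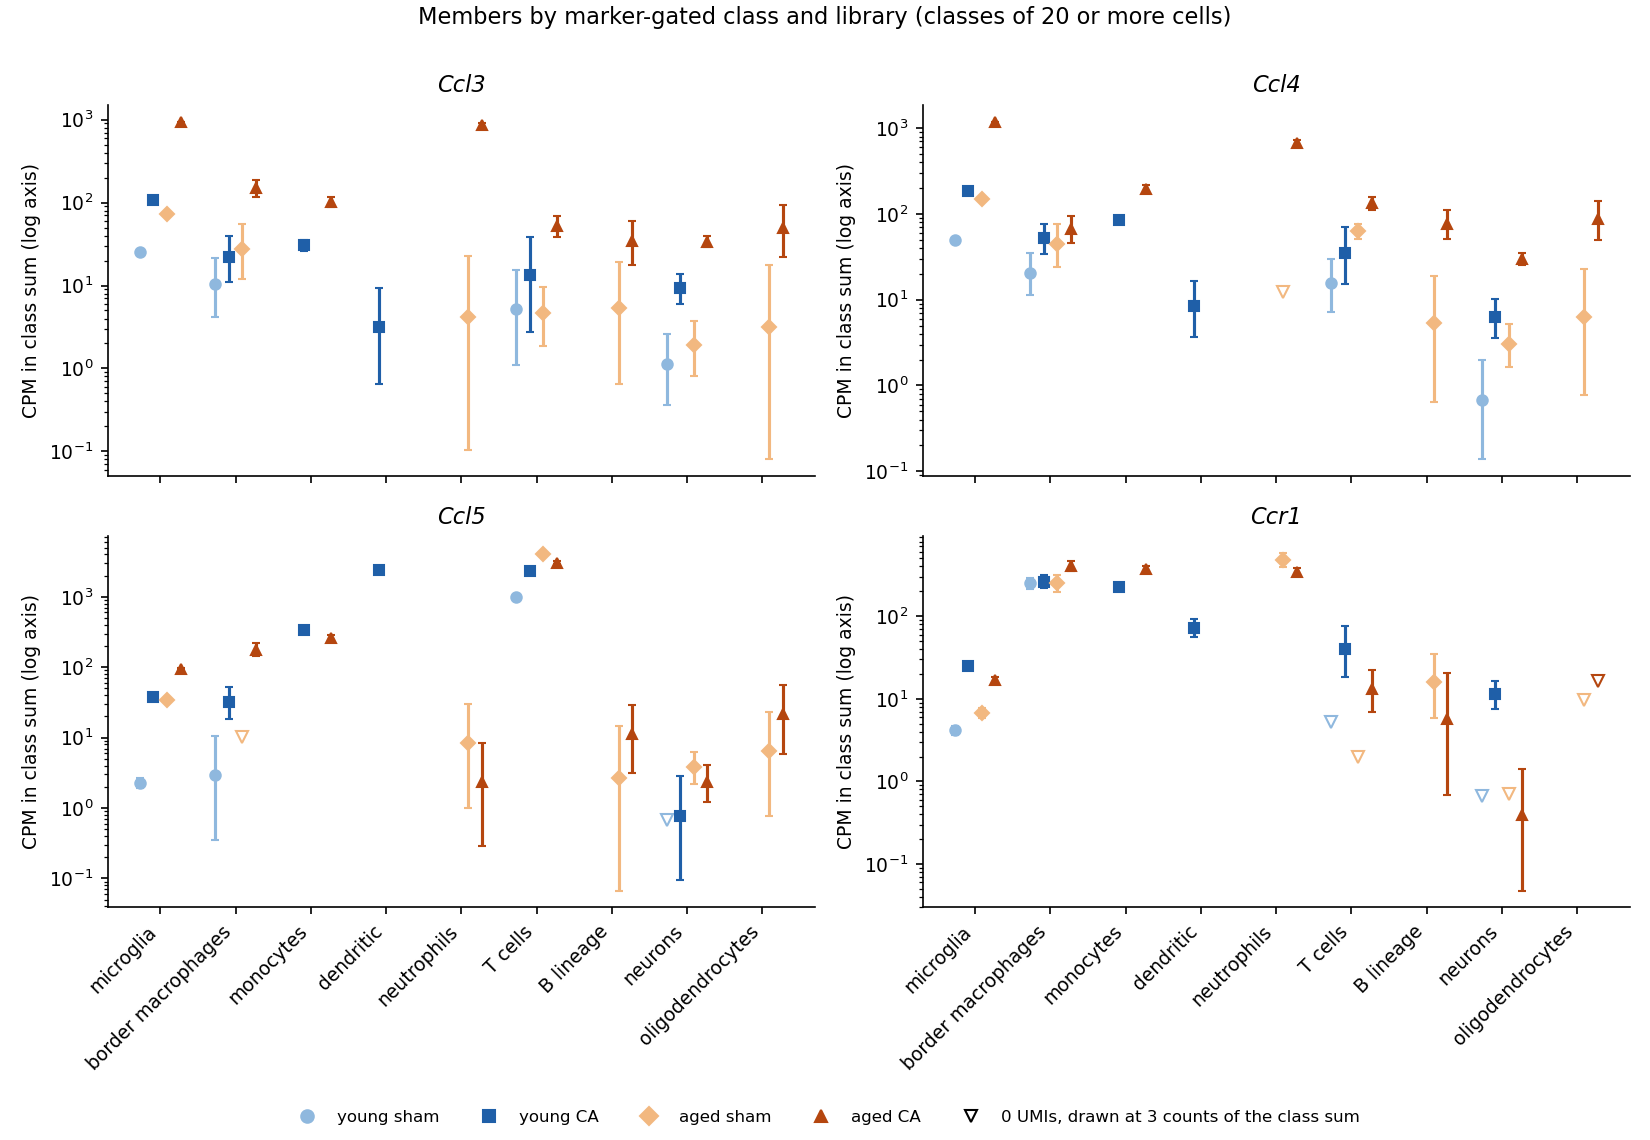
CPM of each member (4 panels) by marker-gated class and library on a log axis, for classes of 20 or more cells, with exact Poisson 95% intervals. Open triangles mark class sums with 0 UMIs, drawn at 3 counts. Ccl5 is high in T cells (up to 4063 CPM) and in dendritic cells of young CA (2398 CPM), and Ccr1 in neutrophils, border-associated macrophages and monocytes. In aged CA Ccl3 and Ccl4 are highest in microglia (935 and 1179 CPM), followed by neutrophils (856 and 678 CPM).

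Across 22 sums of a class in a library with at least 30 cells, over 9 classes and 10402 genes, the gene most like Ccl3 by Pearson correlation of log2(CPM + 1) was Ccl4 (r = 0.923). The gene most like Ccl4 after Ccl3 was Tnf, the cytokine tumour necrosis factor (r = 0.877). Ccl5 was most like Klrk1, which encodes the NK cell receptor NKG2D (r = 0.851), and Ccr1 was most like Pirb, an inhibitory receptor of myeloid cells (r = 0.960). Ccl5 had r = 0.083 with Ccl3 and 0.328 with Ccl4, its neighbours on the chromosome. These sums share libraries and cell classes, so the values are descriptions.

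Other CC chemokine ligands split in microglia. Of 16 in the files, 5 passed the level filter in young and 6 in aged mice. Against 5.72% and 5.99% of all genes, 2 and 3 of them were 2-fold or more higher after CA. The monocyte attractants Ccl2 and Ccl12 were among these in both ages. Ccl2 stood at 8.19, 106, 24.4 and 537 CPM, with CA to sham ratios of 13 (11.9 to 14.2) and 22.0 (20.5 to 23.7). Ccl12 stood at 70.7, 507, 142 and 3093 CPM, with ratios of 7.17 (6.96 to 7.40) and 21.8 (21.2 to 22.4). Ccl6 and Ccl9 did not share this order, at 79.8, 79.5, 89.1 and 41.3 CPM and at 77.2, 77.9, 56.6 and 35.6 CPM, and Ccl6 was the ligand 2-fold or more lower in aged mice. In aged mice Ccl7 was at 1.60 CPM in sham and 105 CPM after CA. Ccl7 in aged mice and Ccl2 in young mice passed the filter only through their CA library.

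Other receptors and the signalling behind them were counted in the same way. Of 13 other CC and atypical chemokine receptors 1 passed the filter in young and 2 in aged mice, and Ccrl2, which binds chemoattractants without signalling, stood at 7.98, 13.1, 12.4 and 28.8 CPM. Of 22 expressed genes of G protein signalling behind chemokine receptors 0 were 2-fold higher and 0 lower in young mice, where 5.72% of all genes were higher and 2.59% lower. In aged mice 1 was higher and 3 lower, where 5.99% of all genes were higher and 8.33% lower. The median log2 ratio was -0.17 in young and -0.33 in aged mice, against -0.06 and 0.04 over all genes. The arrestin gene Arrb1 stood at 84.7, 49.8, 78.2 and 35.5 CPM. Of 3 expressed glycosaminoglycan and matrix partners that bind chemokines, 2 were 2-fold or more higher after CA in young and 3 in aged mice, against the shares of all genes given above. Srgn, which encodes the proteoglycan serglycin, stood at 125, 535, 188 and 580 CPM and Sdc3 (syndecan 3) at 19.8, 119, 30 and 87.3 CPM.

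Genes that NF-kB induces were mixed, and the interferon response genes that passed the level filter were higher nearly throughout. Of 16 expressed NF-kB induced and feedback genes in young mice 5 were 2-fold or more higher after CA and 0 lower, and in aged mice 7 of 19 were higher and 0 lower. Over all genes 5.72% were higher and 2.59% lower in young mice, and 5.99% and 8.33% in aged mice. Tnf and Bcl2a1d in young mice and Il1b and Bcl3 in aged mice passed the filter only through their CA library. Tnf stood at 5.23, 39.9, 32.3 and 264 CPM, an order close to that of Ccl3, and Nfkbia, the inhibitor that NF-kB induces, at 77.3, 185, 73.8 and 425 CPM. Nfkb1 and Rel, subunits of NF-kB, stood at 311, 253, 272 and 244 CPM and at 140, 125, 141 and 141 CPM. Of 16 expressed interferon response genes 14 were 2-fold or more higher in young and 13 in aged mice, against the same shares of all genes. Their median log2 ratios were 4.11 and 2.93, and 8 of the list passed the filter among the shams alone. Irf7, Ifit1, Rsad2, Gbp2 and Cxcl10, among others, were under 10 CPM in both shams. They passed only through the CA libraries and so were bound to lie near or above 2-fold, and nothing is read from the interferon counts. Cxcl10, a ligand for T cells, stood at 1.37, 65.9, 5.07 and 1059 CPM.

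Immediate early genes mark dissociation as well as activation. Of 15 expressed ones 4 were 2-fold or more higher and 0 lower after CA in young mice, against 5.72% and 2.59% of all genes. In aged mice 3 were higher and 2 lower, against 5.99% and 8.33%. The summed level of the list was 2016, 2029, 3114 and 2885 CPM over the 4 libraries. Among shams 7 of 15 were 2-fold or more higher in aged mice, against 2.64% of all genes. In that comparison Ccl3 and Ccl4 were 2.80 and 3.07 times higher, and the part of the immediate early genes in that was not tested. Ier3 stood at 7.49, 48.7, 25.7 and 210 CPM and Fosb at 23.5, 12.6, 46.1 and 17.1 CPM. In young mice Ier3 passed the filter only through young CA. Among shams it passed only through aged sham, so it was bound to lie near or above 2-fold there, and it is among the 7. Of 16 cytotoxic lymphocyte genes only Cst7 and Id2, which microglia also express, passed the filter in microglia, and Nkg7 stood at 0.52, 0.12, 9.26 and 0.19 CPM, highest in aged sham as were the T cell markers beside Ccl5.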

How the data were processed

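Droplet 3′ single-cell counts of CD45+ brain cells were compared between 4 libraries, 1 per group. The deposited files hold raw UMI counts, which per the submitters' processing notes come from Cell Ranger 7.1.0 and mm10. Which annotation and which cell calling the authors used is not given in the sources here. The libraries held 72648041, 115892682, 44277472 and 70924569 UMIs in the library order, so aged sham is the least precise.

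The members and all gene lists were chosen with earlier results of these data known. Barcodes were kept with at least 500 UMIs, 200 genes and at most 10% mitochondrial UMIs. Each was gated on 14 marker lists, of which 12 had enough cells: its class was the list with the highest level relative to clear cells of that class, capped at 2 per marker, with at least 3 markers seen, a relative level of at least 0.1 and no second class above 0.5 of the first. A class is thus a range of a score. Microglia within 1.5 times of the floor numbered 1, 4, 3 and 61, and those within 10% of the second limit 32, 91, 120 and 73. No doublet caller was run, and the second limit left out barcodes of mixed classes. Members are not markers.

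Counts were summed per class and scaled to CPM, with exact Poisson intervals, exact conditional binomial intervals for ratios and Clopper-Pearson intervals for shares of cells. Ratios needed 20 cells in both libraries. UMIs of a class are not independent of its few rich cells, so intervals and floors of 3 counts cover counting error only. Genes named beside the members were, first, the 5 most like each member over the class sums. Next came the 5 most co-detected with each ligand in thinned microglia, among genes seen in at least 2% of them in each library used. Last were up to 4 per list with the largest mean log2 ratio in size over both ages. The text gives values for some of these. Ccl7, Nfkb1, Rel and Nkg7 were named after their values were seen. Mx1 of the interferon list was not used here. One microglial gene is not reported here. Alternatives were other limits on barcodes, TMM scaling (edgeR 4.0.16, R 4.3.3), equal weight per cell, Leiden clusters (igraph 0.11.9), a stricter second limit and a pseudocount. The counts were handled with Python 3.11.15 and scipy 1.17.1, and the counting code was tested on simulated data.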

Additional observations from a re-analysis of the deposited data

Results flagged for a closer look

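Ccl5 in T cells moved in opposite directions with CA at the 2 ages, with a ratio of CPM of 2.34 in young and 0.755 in aged mice, and each interval excluded 1. The difference between the ages was not tested, since each group was 1 library. The young T cells were few, 42 in sham and 24 in CA, and the share with a Cd8 UMI was 23.8% and 33.3% there, against 62.0% and 56.8% in aged mice. In young CA 2 T cells held 175 and 76 of the 521 Ccl5 UMIs. With each cell weighted equally the young ratio was 1.99.

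Over all kept cells Ccl5 also moved in opposite directions, with a ratio of 4.28 in young and 0.935 in aged mice, and this difference was not tested either. T cells numbered 42, 24, 171 and 111 in the library order, and they held 67.2% of the Ccl5 UMIs in aged sham and 23.3% in aged CA. The level over all cells thus holds both the number of T cells and the Ccl5 level in each class.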

How the results depend on the processing

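No paired analysis was possible because each group was 1 library and the labels give no pairing, and no library could be left out. All 16 member ratios in microglia kept their direction under each of 10 alternatives, and 140 alternative values for microglia stayed inside the counting interval of the reported value or, for counts of genes, within 1.5 times, while 64 did not. The counting intervals are narrow, so a small move can leave them. The largest move of a member ratio was 3.74 times, for Ccl5 with CA in aged mice. Outside Ccl5 it was 1.54 times, for Ccl3 with CA in aged mice. Of the 10 alternatives, 3 were added after seeing the data. They were a marker level floor of 0.3, leaving out microglia with a T or NK marker UMI, and adding unassigned barcodes nearest to microglia. Below, CA is the ratio of CA to sham and age the ratio of aged to young.

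With each cell weighted equally, CA in young mice was 3.78 for Ccl3, 3.33 for Ccl4, 10.7 for Ccl5 and 4.79 for Ccr1, and in aged mice 12.4, 8.50, 1.08 and 1.97. Age was 2.81 for Ccl4 and 27.1 for Ccl5 in sham, and 9.15, 7.17 and 2.73 for Ccl3, Ccl4 and Ccl5 after CA. In young neurons the Ccl3 ratio turned from 8.37 to 0.501.

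TMM scaling gave CA of 4.80 and 4.31 for Ccl3 and Ccl4 in young mice and 13.9, 8.34 and 2.95 for Ccl3, Ccl4 and Ccl5 in aged mice, age of 8.09, 5.92 and 2.36 after CA, and 148 genes 2-fold lower in young mice in place of 236. It gave 692 higher and 650 lower genes in aged mice in place of 556 and 773.

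With the floor of 0.3, CA was 3.64 for Ccl4 in young mice and 8.42, 5.19 and 2.14 for Ccl3, Ccl4 and Ccl5 in aged mice, and age after CA was 5.58, 4.30, 2.16 and 0.626 for the 4 members. Without microglia that held a T or NK marker, CA was 3.54 for Ccl4 in young mice and 7.44 and 6.38 for Ccl4 and Ccl5 in aged mice, and age was 6.62 for Ccl5 in sham and 8.89 and 6.53 for Ccl3 and Ccl4 after CA. With unassigned barcodes added, CA was 3.61 and 5.18 for Ccl4 and Ccl5 in young mice and 8.55 and 1.86 in aged mice, and age was 2.85 and 7.38 for Ccl4 and Ccl5 in sham and 8.90, 6.75 and 2.65 for the ligands after CA.

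Leiden classes gave CA in aged mice of 13.9, 8.52, 10.3 and 3.23 for the 4 members, age of 4.96 for Ccl5 and 1.32 for Ccr1 in sham, and 9.10, 7.05 and 2.85 for the ligands after CA. The stricter second limit gave 4.18 for Ccl5 with CA in aged mice and 10.5 with age in sham. The mitochondrial limit of 20% gave 6.40 for Ccl4 with age after CA. Adding 1 CPM gave CA in young mice of 11.9 for Ccl5 and 5.04 for Ccr1, and age of 10.9 for Ccl5 in sham. A filter at a mean of 1 CPM in place of 10 tests more genes, with 1024 higher and 811 lower in young and 1031 and 2315 in aged mice. The cause of the other moves was not tested.

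In other classes 113 alternative values stayed inside the counting interval, 10 did not and 1, above, turned. All 32 shares of microglia left their interval with thinning to 2000 UMIs or none, and all were larger except Ccl5 in aged sham at 2000 UMIs (4.68%). No cluster was named T cells or NK cells. Classes under 20 cells limit ratios for NK cells, dendritic cells and young neutrophils and monocytes.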
